A study of Mus musculus with 17 samples.

Results

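The 8 genes Dcn, Lum, Pdgfra, Fbln1, Aldh1a2, Igf2, Ptgds and Islr, which mark fibroblasts of the leptomeninges and of the perivascular space, were followed in RNA of microvessels isolated from mouse cerebral cortex. They were taken by name from the table of 42687 genes, all 8 of 8 were found, and all 8 passed the filter on low counts. The libraries came from mice of 10 to 11 months of the wild type (WT) and of the APP/PS1 line, a transgenic amyloid model of Alzheimer's disease that the sample labels write as APP. All groups received a peptide, so none was untreated: 10 mg/kg by the intraperitoneal route for 2 weeks, with a dose each 2 days. Microvessels were pelleted through dextran from ipsilateral cortex after a surgery that the labels do not describe. Inhibitor groups, labelled NOX2, were taken to have had gp91-ds-tat, which blocks the superoxide-producing oxidase NOX2, and control groups, labelled SC, to have had sgp91-ds-tat. The 4 groups held 5 WT control, 5 WT inhibitor, 2 APP control and 5 APP inhibitor libraries. The labels name no batch, sex, animal or driving promoter of the transgenes, and do not say that each library is a separate animal; if libraries share a source, the p-values measure technical spread.

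Brain fibroblasts lie outside the vessel wall proper. Those of the pia and arachnoid form the leptomeninges, and perivascular fibroblasts follow arterioles and larger venules inside the perivascular space; both secrete the interstitial matrix that capillaries lack. Leptomeningeal fibroblasts also supply retinoic acid, insulin-like growth factor 2 and prostaglandin D2 synthase to the cerebrospinal fluid compartment. Several of these genes have a further source in the brain: Pdgfra in oligodendrocyte precursors, Ptgds in oligodendrocytes and choroid plexus, and Igf2 in choroid plexus. In bulk RNA, fewer cells of a type and less RNA per cell cannot be told apart.

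RefSeq (GRCm38.p6) held promoter windows, 250 bases before to 50 bases after a start site, for 6 of the 8 genes, with 10 windows in all. The stretches shown hold no annotated exon and belong to the 2 pairs of genes whose levels moved most closely together over libraries by Pearson's r, Ptgds with Aldh1a2 and Fbln1 with Islr, and to Igf2, the gene with the widest range; each is written 5′ to 3′ on the strand of its gene, and capitals mark a CCAAT box or a GC box. The stretches are chr2:25469843-25469999 (minus strand) for Ptgds, chr9:71215539-71215788 (plus) for Aldh1a2, chr15:85205699-85205948 (plus) for Fbln1, chr9:58158555-58158804 (minus) for Islr and chr7:142657497-142657746 (minus) for the fourth of the 4 Igf2 windows.
Ptgds: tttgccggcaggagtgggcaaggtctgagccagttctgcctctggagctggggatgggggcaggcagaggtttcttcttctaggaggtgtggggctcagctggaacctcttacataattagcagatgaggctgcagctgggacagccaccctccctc
Aldh1a2: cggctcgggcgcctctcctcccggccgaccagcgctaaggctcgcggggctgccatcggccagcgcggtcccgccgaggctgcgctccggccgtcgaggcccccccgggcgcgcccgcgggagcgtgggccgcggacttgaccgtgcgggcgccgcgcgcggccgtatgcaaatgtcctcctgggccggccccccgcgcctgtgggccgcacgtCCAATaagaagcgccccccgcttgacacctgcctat
Fbln1: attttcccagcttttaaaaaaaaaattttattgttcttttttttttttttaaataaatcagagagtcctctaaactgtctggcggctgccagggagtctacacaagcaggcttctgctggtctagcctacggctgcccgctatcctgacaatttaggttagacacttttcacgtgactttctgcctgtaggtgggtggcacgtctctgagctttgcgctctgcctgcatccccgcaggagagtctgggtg
Islr: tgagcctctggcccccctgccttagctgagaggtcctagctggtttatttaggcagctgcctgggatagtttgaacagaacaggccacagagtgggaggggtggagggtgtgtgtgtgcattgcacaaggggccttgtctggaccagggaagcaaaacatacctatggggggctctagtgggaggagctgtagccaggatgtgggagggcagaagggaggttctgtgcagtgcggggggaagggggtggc
Igf2: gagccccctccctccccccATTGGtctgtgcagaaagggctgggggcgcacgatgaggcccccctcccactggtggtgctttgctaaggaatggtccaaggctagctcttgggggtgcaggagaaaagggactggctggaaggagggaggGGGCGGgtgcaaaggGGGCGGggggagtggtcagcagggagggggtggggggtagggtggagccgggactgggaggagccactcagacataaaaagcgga
The 250 upstream bases were searched on both strands for 4 motifs, none contained in another: the TATA box (TATAAA), found in 12.4% of all 32851 windows, the CCAAT box (letters CCAAT) in 33.8%, the GC box (GGGCGG) in 32.7% and an AP-1 site (TGANTCA) in 6.75%. Aldh1a2 held 1 CCAAT box. The fourth Igf2 window held 1 CCAAT box, read on the opposite strand as ATTGG, and 2 GC boxes, and the third held 1 GC box. Ptgds held 1 AP-1 site, in the part of its window that is not shown. The second Fbln1 window held 1 GC box, and the windows of Pdgfra and Islr held none of the 4. These letter matches are a description of the windows and not evidence of binding.

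Libraries held 7316503 to 17862965 counts in total (median 11342154). Levels are in CPM, the count of a gene per fixed number of counts in a library whose size was scaled by TMM, and the floor of 3 counts was 0.168 to 0.41 CPM. App was at 1260 to 2227 CPM in the 10 WT and 1895 to 3330 CPM in the 7 APP libraries, with overlapping ranges, and Prnp, whose promoter is often used in such transgenes, at 301 to 554 CPM in WT and 681 to 1416 CPM in APP. The labels give the cell type as endothelium, pericytes and astrocytic endfeet. Abundant in every library were endothelial Flt1 at 817 to 1580 CPM, pericyte Rgs5 at 479.7 to 896 CPM and astrocyte Slc1a2 at 2363 to 3979 CPM. Slc1a2 was listed for astrocytes as a whole and does not single out endfeet. Neuronal Syt1 was also present, at 1310.1 to 2370.4 CPM. Choroid plexus RNA set libraries apart: Ttr was at 10.5 CPM in WT control replicate 1 and at 7372 CPM in WT control replicate 4. That last library also had the highest level of 5 of the 8 fibroblast genes, and the changes without it are given beside the signs of the estimates.

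RNA of the 8 genes was present in all 17 libraries. The 3 fibrillar collagen genes listed as further fibroblast markers were detected throughout, with Col1a1 at 24.4 to 56.4 CPM, Col1a2 at 38.2 to 91.6 CPM and Col3a1 at 7.57 to 20.9 CPM. Detection in bulk RNA does not show the source cell, so it does not test the fibroblast label. Per kilobase of exon, Ptgds had the highest mean level of the 8 genes at 810.2 CPM per kb, followed by Igf2 at 89.0, Islr at 14.0, Aldh1a2 at 12.9, Pdgfra at 10.4, Dcn at 9.41, Fbln1 at 5.41 and Lum at 4.95 CPM per kb. In CPM without regard to length, Ptgds and Igf2 stood above 99.90% and 99.19% of the 18753 genes tested. Lum, the least abundant in CPM, stood above 44.2% of them and had 52 to 262 counts per library.

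For none of the 8 genes did a difference between genotypes or peptides pass the test. With edgeR's quasi-likelihood F test and Benjamini-Hochberg adjustment over all genes, 0 of the 8 passed the threshold of 0.05 in any of the 5 comparisons, and 0 of the 8 had an unadjusted p under 0.05. The smallest adjusted p of a fibroblast gene was 0.95, for Fbln1 between genotypes. Of all genes tested, 0.587% were called between APP and WT over both peptides (110 genes, of which 105, or 0.56%, higher and 5, or 0.0267%, lower in APP), and 0% were called for the inhibitor over both genotypes, in WT, in APP, or for the difference between those 2 inhibitor effects. At an unadjusted p under 0.05 the shares of all genes were 6.38%, 2.11%, 1.34%, 1.8% and 0.843% in the same order. For each of the 8 genes, no group mean differed from the next in order by more than the larger of their SDs, and the ranges of neighbouring groups overlapped.

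**Figure D1:**
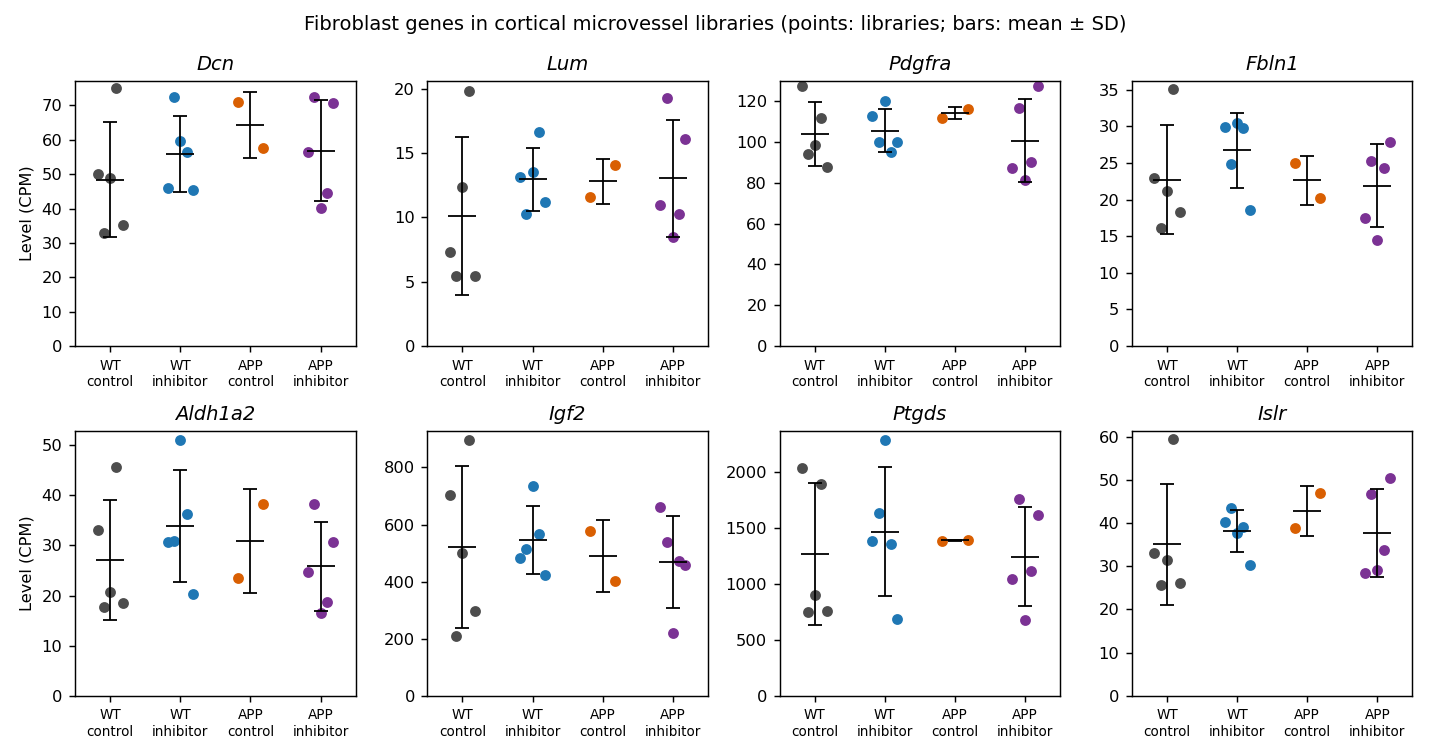
Levels of the 8 fibroblast genes in CPM (linear axes from 0) in each library, by group, with the group mean and SD. Points of all 4 groups overlap for each gene, and the WT control group holds both the highest library, replicate 4, and the lowest, replicate 2 or 5, for Dcn, Lum, Igf2 and Islr.

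The secreted matrix proteins come first. Dcn (ENSMUSG00000019929, chr10:97479609-97518143, plus strand) encodes decorin, a small leucine-rich proteoglycan that binds collagen fibrils and TGF-beta. In WT, Dcn was at 49.98, 32.9, 48.8, 74.9 and 35.3 CPM in the 5 control libraries (replicates 1 to 5 in order, as for each gene) and at 45.9, 72.3, 59.5, 56.3 and 45.4 CPM in the 5 inhibitor libraries. In APP, it was at 71.1 and 57.6 CPM in the 2 control libraries and at 56.3, 72.3, 40.2, 44.6 and 70.7 CPM in the 5 inhibitor libraries. WT control replicate 4 was the highest of all 17 and WT control replicate 2 the lowest, so that group spanned the others. Group means for Dcn were 48.4 CPM ± 16.7 (SD, n = 5) in WT control, 55.9 CPM ± 11.1 (SD, n = 5) in WT inhibitor, 64.3 CPM ± 9.54 (SD, n = 2) in APP control and 56.8 CPM ± 14.7 (SD, n = 5) in APP inhibitor. The log2 change was 0.17 (SE 0.16; 95% interval -0.17 to 0.51) for APP against WT, 0.21 (SE 0.21; 95% interval -0.23 to 0.64) for the inhibitor in WT and -0.18 (SE 0.27; 95% interval -0.74 to 0.39) in APP.

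Lum (ENSMUSG00000036446, chr10:97565128-97572703, plus strand), on the same chromosome as Dcn, encodes lumican, a keratan sulfate proteoglycan that regulates fibril diameter. In WT, Lum was at 7.34, 5.44, 12.4, 19.8 and 5.43 CPM in the 5 control libraries and at 13.2, 10.3, 13.5, 16.6 and 11.2 CPM in the 5 inhibitor libraries. The 2 APP control libraries had 11.6 and 14.04 CPM and the 5 APP inhibitor libraries 10.98, 19.3, 8.46, 10.2 and 16.1 CPM. In WT control, 3 libraries lay below all other libraries in the study and 1 above them, while the WT inhibitor libraries lay between. Group means for Lum were 10.1 CPM ± 6.13 (SD, n = 5) in WT control, 12.96 CPM ± 2.45 (SD, n = 5) in WT inhibitor, 12.8 CPM ± 1.74 (SD, n = 2) in APP control and 13.02 CPM ± 4.53 (SD, n = 5) in APP inhibitor. The difference for the inhibitor in WT was 0.35 (SE 0.30; 95% interval -0.29 to 0.99) on the log2 scale, and its interval spans 0. Without WT control replicate 4 it was 0.75, and it did not pass the test there either.

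Fbln1 (ENSMUSG00000006369, chr15:85205949-85286535, plus strand) encodes fibulin-1, a glycoprotein of basement membranes and elastic fibres. In WT, Fbln1 was at 22.996, 16.1, 21.1, 35.2 and 18.3 CPM in the 5 control libraries and at 29.98, 24.8, 30.5, 29.7 and 18.6 CPM in the 5 inhibitor libraries. APP control libraries were at 24.96 and 20.3 CPM, and APP inhibitor libraries at 17.4, 25.3, 14.4, 24.4 and 27.8 CPM. Of the 5 WT inhibitor libraries 4 were at 24.8 CPM or more, as were 1 of 5 in WT control, 1 of 2 in APP control and 2 of 5 in APP inhibitor. Group means for Fbln1 were 22.7 CPM ± 7.43 (SD, n = 5) in WT control, 26.7 CPM ± 5.07 (SD, n = 5) in WT inhibitor, 22.6 CPM ± 3.32 (SD, n = 2) in APP control and 21.9 CPM ± 5.67 (SD, n = 5) in APP inhibitor. Between genotypes the log2 change of Fbln1 was -0.18 (SE 0.16; 95% interval -0.52 to 0.16), with an interval that spans 0. For the inhibitor in WT the log2 change was 0.23 (SE 0.21; 95% interval -0.21 to 0.66).

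Among signalling genes, Igf2 (ENSMUSG00000048583, chr7:142650766-142666816, minus strand) encodes the growth factor that acts through the receptors encoded by Igf1r and Insr and is cleared by that of Igf2r. In WT, Igf2 was at 705, 210.2, 501, 894 and 296 CPM in the 5 control libraries and at 483, 513, 736, 567 and 423 CPM in the 5 inhibitor libraries. Levels in APP were 578 and 401 CPM with control and 663, 538, 221, 471 and 457 CPM with inhibitor. The highest library was 894 CPM and the lowest 210.2 CPM, a 4.25-fold range, and both were WT controls. Group means for Igf2 were 521 CPM ± 283 (SD, n = 5) in WT control, 544 CPM ± 119 (SD, n = 5) in WT inhibitor, 489 CPM ± 125 (SD, n = 2) in APP control and 469.8 CPM ± 161 (SD, n = 5) in APP inhibitor. The log2 change was -0.17 (SE 0.25; 95% interval -0.69 to 0.35) between genotypes and 0.06 (SE 0.32; 95% interval -0.61 to 0.73) for the inhibitor in WT. In the gene models, 62.8% of the exon bases of Igf2 are shared with Gm49394 on the same strand, which is not among the 42687 genes with counts. A share of 1.7% is common to the antisense gene Igf2os, which had 6 to 28 counts. Whether the annotation used for counting held Gm49394 is not known, so the count of Igf2 may depend on how shared reads were assigned.

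The receptor gene Pdgfra (ENSMUSG00000029231, chr5:75152292-75198215, plus strand) encodes the PDGF receptor alpha, bound by PDGF-A and PDGF-C. In WT, Pdgfra was at 128, 94.1, 98.7, 112 and 87.9 CPM in the 5 control libraries and at 113, 100.1, 120.1, 95.4 and 100.04 CPM in the 5 inhibitor libraries. In APP, it was at 112 and 116 CPM in the 2 control libraries and at 87.1, 117, 81.3, 90.3 and 128 CPM in the 5 inhibitor libraries. Its levels were the most even of the 8 genes, with a 1.57-fold range over libraries, and the 2 APP control libraries lay inside the range of each other group. Group means for Pdgfra were 104 CPM ± 15.8 (SD, n = 5) in WT control, 106 CPM ± 10.3 (SD, n = 5) in WT inhibitor, 114 CPM ± 3.04 (SD, n = 2) in APP control and 101 CPM ± 20.3 (SD, n = 5) in APP inhibitor. Its intervals were the narrowest as well: the log2 change was 0.01 (SE 0.10; 95% interval -0.20 to 0.21) between genotypes, 0.02 (SE 0.13; 95% interval -0.24 to 0.29) for the inhibitor in WT and -0.18 (SE 0.16; 95% interval -0.53 to 0.16) in APP. The oligodendrocyte precursor marker Cspg4, the gene of the NG2 proteoglycan also made by pericytes, was at 76.7 to 154 CPM.

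A pair of enzymes followed. Aldh1a2 (ENSMUSG00000013584, chr9:71215789-71296243, plus strand) encodes retinaldehyde dehydrogenase 2, which makes retinoic acid. In WT, Aldh1a2 was at 32.99, 17.8, 20.7, 45.6 and 18.6 CPM in the 5 control libraries and at 30.6, 30.96, 51.1, 36.3 and 20.3 CPM in the 5 inhibitor libraries. The 2 APP control libraries had 23.5 and 38.3 CPM and the 5 APP inhibitor libraries 24.7, 38.3, 16.6, 18.8 and 30.7 CPM. WT inhibitor replicate 3 and WT control replicate 4 were the highest, and each group of 5 also had at least 1 library at 20.3 CPM or below. Group means for Aldh1a2 were 27.1 CPM ± 12.01 (SD, n = 5) in WT control, 33.9 CPM ± 11.2 (SD, n = 5) in WT inhibitor, 30.9 CPM ± 10.5 (SD, n = 2) in APP control and 25.8 CPM ± 8.87 (SD, n = 5) in APP inhibitor. The log2 change for the inhibitor was 0.31 (SE 0.29; 95% interval -0.29 to 0.91) in WT and -0.25 (SE 0.37; 95% interval -1.03 to 0.53) in APP. The difference between the 2 changes, -0.56 (SE 0.47; 95% interval -1.54 to 0.42), did not pass the test, and it was -0.88 without APP control replicate 1 and -0.17 without APP control replicate 2. The change in APP was -0.56 and 0.14 without the same libraries.

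Ptgds (ENSMUSG00000015090, chr2:25466709-25470046, minus strand) encodes the lipocalin-type prostaglandin D synthase, which is secreted into cerebrospinal fluid. In WT, Ptgds was at 2036, 752, 905, 1894 and 761 CPM in the 5 control libraries and at 1389, 1634, 2291, 1357 and 684 CPM in the 5 inhibitor libraries. APP control libraries were at 1386 and 1397 CPM, and APP inhibitor libraries at 1047, 1766, 676, 1119.97 and 1618 CPM. The groups overlapped over most of their range: WT inhibitor held the highest and the second lowest library, and the 2 APP control libraries were almost equal and in the middle. Group means for Ptgds were 1269.6 CPM ± 639.6 (SD, n = 5) in WT control, 1471 CPM ± 578 (SD, n = 5) in WT inhibitor, 1391 CPM ± 8.06 (SD, n = 2) in APP control and 1245 CPM ± 444 (SD, n = 5) in APP inhibitor. The log2 change was -0.10 (SE 0.26; 95% interval -0.64 to 0.43) between genotypes, 0.21 (SE 0.33; 95% interval -0.48 to 0.90) for the inhibitor in WT and -0.16 (SE 0.43; 95% interval -1.07 to 0.75) in APP. All 3 intervals span 0 and are among the widest of the 8 genes.

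Islr (ENSMUSG00000037206, chr9:58156268-58204306, minus strand) encodes a membrane-anchored leucine-rich repeat protein of mesenchymal stromal cells, also called Meflin. In WT, Islr was at 32.99, 25.6, 31.4, 59.4 and 26.02 CPM in the 5 control libraries and at 40.2, 43.4, 37.6, 39.1 and 30.2 CPM in the 5 inhibitor libraries. Levels in APP were 38.7 and 46.9 CPM with control and 28.5, 46.6, 29.1, 33.6 and 50.5 CPM with inhibitor. WT control replicate 4 was again the highest of all libraries, while the other 4 WT control libraries lay at 33.0 CPM or below and 4 of the 5 WT inhibitor libraries at 37.6 CPM or above. Group means for Islr were 35.1 CPM ± 13.98 (SD, n = 5) in WT control, 38.1 CPM ± 4.899 (SD, n = 5) in WT inhibitor, 42.8 CPM ± 5.75 (SD, n = 2) in APP control and 37.7 CPM ± 10.2 (SD, n = 5) in APP inhibitor. The log2 change for the inhibitor in WT was 0.12 (SE 0.21; 95% interval -0.32 to 0.56), and without WT control replicate 4 it was 0.39, without passing the test. Islr shares 6.7% of its exon bases with its neighbour Islr2, which is on the same strand and had 528 to 3051 counts, so some reads cannot be assigned to 1 of the 2 genes.

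The signs of the estimates are given as a description, since none passed the test and all 8 genes were measured in the same libraries. For the inhibitor in WT, 8 of 8 log2 changes were above 0, with a median of 0.21, against 50.6% of all genes and a median of 0.0012 over them. In APP, 1 of 8 was above 0, with a median of -0.17, against 50.2% of all genes. The differences between the inhibitor effects, which use the libraries of both these comparisons again, were below 0 for 8 of 8, with a median of -0.31, and 49.3% of all genes were above 0. This sign was not particular to the 8 genes. Above 0 were 0 of 7 endothelial, 0 of 7 pericyte, 1 of 6 smooth muscle and 1 of 20 fibroblast transporter and regulator genes. Collagens had 7 of 14 above 0 and choroid plexus genes 10 of 10. Between genotypes 4 of the 8 fibroblast genes were above 0 (median -0.05) against 50.7% of all genes, and for the inhibitor over both genotypes 7 of 8 were (median 0.07) against 51.4%. Leaving out WT control replicate 4 moved the change for the inhibitor in WT to 0.42 for Dcn, 0.44 for Fbln1, 0.57 for Aldh1a2, 0.35 for Igf2, 0.05 for Pdgfra and 0.40 for Ptgds, and leaving out WT control replicate 2 moved that of Igf2 to -0.14. Between genotypes the change without WT control replicate 4 was 0.24 for Dcn, 0.27 for Lum, -0.11 for Fbln1, -0.09 for Aldh1a2, -0.07 for Igf2, -0.04 for Ptgds, 0.19 for Islr and 0.01 for Pdgfra. Without that library the median of the 8 was 0.41 for the inhibitor in WT, -0.57 for the difference of the inhibitor effects, 0.18 for the inhibitor over both genotypes and -0.01 between genotypes. Over all fits with 1 library left out, an alternative chosen after seeing the data, 5 to 8 of 8 changes were above 0 for the inhibitor in WT (median 0.08 to 0.41), with the lowest count without WT inhibitor replicate 3. In APP 0 to 3 of 8 were (median -0.27 to -0.04), and for the inhibitor over both genotypes 3 to 7 of 8 (median -0.02 to 0.18), with the lowest count without WT control replicate 2 or 5 or WT inhibitor replicate 3. The differences of the inhibitor effects were below 0 for 7 to 8 of 8 (median -0.57 to -0.19), and 3 to 5 of 8 genotype changes were above 0 (median -0.11 to 0.04).

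**Figure D2:**
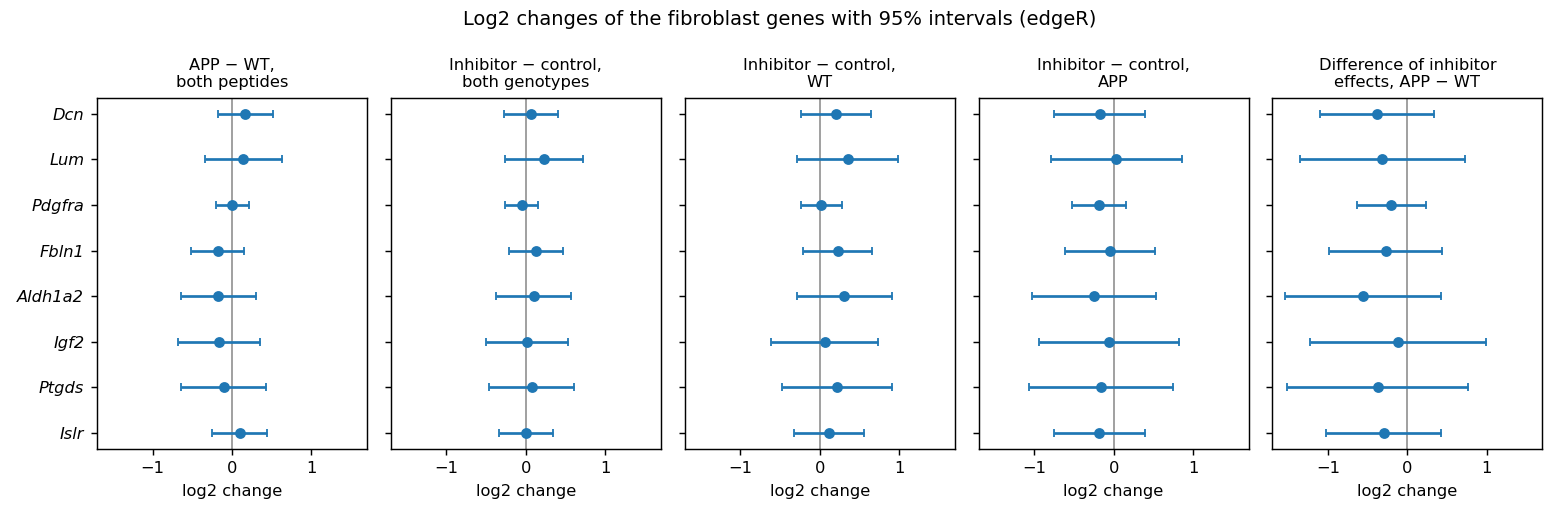
Log2 changes of the 8 fibroblast genes (points) with 95% intervals (bars) in the 5 comparisons, from edgeR; the vertical line is 0. All 40 intervals cross 0, and the estimates for the inhibitor lie above 0 for 8 of 8 genes in WT and for 1 of 8 in APP.

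The spread lay between libraries of the same group. The SD of log2 CPM within groups was 0.62 for Igf2, 0.61 for Ptgds, 0.54 for Lum and 0.52 for Aldh1a2, above that of 94.1%, 94.0%, 90.5% and 89.2% of all genes tested. It was 0.38 for Dcn and 0.37 for both Fbln1 and Islr, and 0.21 for Pdgfra, which was the only 1 of the 8 below the median of all genes, 0.25. The same libraries were high or low for most of the genes. WT control replicate 4 was among the 3 highest of 17 for 7 of the 8 genes, all but Pdgfra, and WT inhibitor replicate 3 for 5 of 8. WT control replicate 2 was among the 3 lowest for 7 of 8, and WT control replicate 5 and APP inhibitor replicate 3 for 6 of 8 each.

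**Figure D3:**
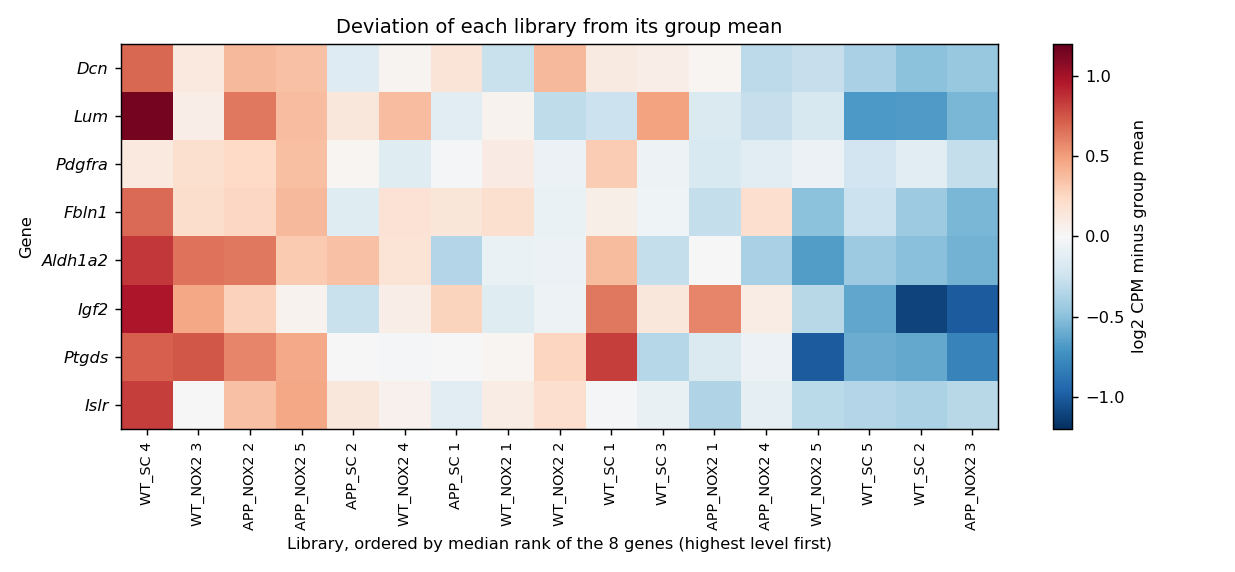
Deviation of each library from the mean of its group in log2 CPM, for the 8 fibroblast genes (rows) and 17 libraries (columns, ordered by the median rank of the 8 genes). Columns are mostly of 1 colour: WT_SC (control) replicate 4 is among the 3 highest libraries for 7 of 8 genes, and WT_SC replicate 2 and APP_NOX2 (inhibitor) replicate 3 lie below their group means for 8 of 8.

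The 8 genes moved together over libraries. After the mean of its group was subtracted from each log2 CPM value, Pearson's r was above 0 for all 28 pairs of the 8 genes, from 0.53 to 0.90 with a median of 0.74, and Spearman's rho was 0.37 to 0.90 (17 libraries). Permutation tests that shuffled libraries within groups, 100000 times and two-sided, gave an adjusted p under 0.05 for 20 of 28 pairs by r and 22 by rho, adjusted over 124 relations computed in all. Each relation was also computed without the 2 libraries farthest from the median of 1 of its 2 variables. The libraries left out can therefore differ between relations. Where a marker list was involved, that variable was the list mean. For the 28 pairs r was then 0.40 to 0.89. Without WT control replicate 4 the median r was 0.67, from 0.36 to 0.89. All genes of a library share its scaling factor and its mix of cells.

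The closest pair was Ptgds with Aldh1a2, the synthases of prostaglandin D2 and retinoic acid (r = 0.90, rho = 0.90, n = 17, adjusted permutation p = 0.005 for r and 0.009 for rho; r = 0.89 without the 2 farthest libraries). By r, Fbln1 with Islr came next, at r = 0.84 and rho = 0.76 (permutation p adjusted 0.01 and 0.019; r = 0.72 without 2). Islr with Lum had r = 0.83 and rho = 0.70 (permutation p adjusted 0.014 and 0.034; r = 0.70 without 2). The loosest pair by r was Pdgfra with Lum (r = 0.53, rho = 0.58, permutation p adjusted 0.13 and 0.089), followed by Pdgfra with Igf2 (r = 0.54, rho = 0.50, permutation p adjusted 0.13 and 0.14). By rho it was Islr with Igf2 (rho = 0.37, r = 0.57, permutation p adjusted 0.33 and 0.14). Among the other 18752 genes tested, all 7 fellow genes ranked in the top 5% by correlation with Fbln1 and with Aldh1a2, and 2 of 7 did with Pdgfra.

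**Figure D4:**
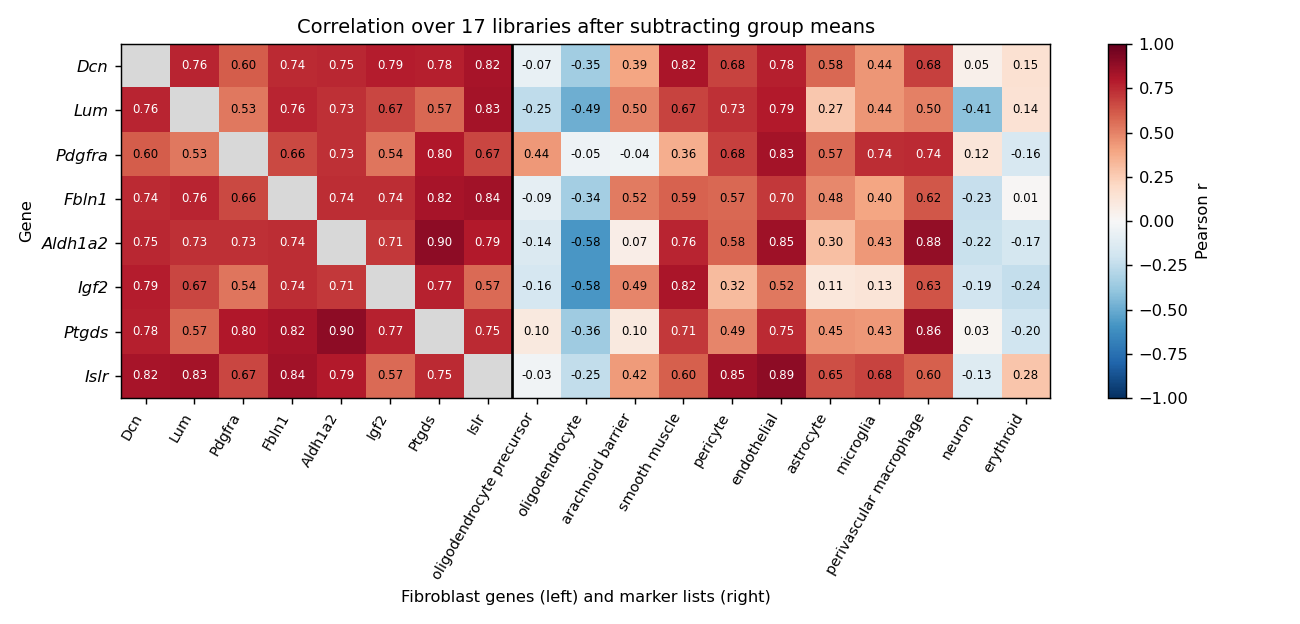
Pearson's r over 17 libraries, after group means were subtracted, between each fibroblast gene (rows) and the other 7 genes (left of the line) or the mean of 11 marker lists of other cell types (right). Pairs of fibroblast genes run from 0.53 to 0.90, and the columns for endothelium and perivascular macrophages from 0.50 to 0.89, while those for oligodendrocytes run from -0.59 to -0.05.

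Markers of other vascular cells moved with the fibroblast genes, and their part in these correlations was not tested. The 7 endothelial genes summed to 2513 to 4613 CPM over libraries, and their mean log2 level correlated with the 8 genes at r = 0.52 to 0.89 (adjusted permutation p under 0.05 for 7 of 8). The 5 perivascular macrophage genes, which include Mrc1 and share the perivascular space, summed to 37.6 to 111 CPM and correlated at r = 0.50 to 0.88 (6 of 8), with Aldh1a2 at 0.88 (rho = 0.90, permutation p adjusted 0.005 and 0.009; r = 0.84 without 2). The 6 smooth muscle genes gave r = 0.36 to 0.82 (5 of 8) with sums of 99.8 to 296 CPM, and the 7 pericyte genes r = 0.32 to 0.85 (3 of 8) with sums of 1055 to 1826 CPM. Microglial and astrocyte lists reached an adjusted p under 0.05 with 2 and 1 of the 8 genes. No gene of any of these lists was at 0 in any library. Neuronal, oligodendrocyte, oligodendrocyte precursor, arachnoid barrier and erythroid lists and the total count gave 0 of 8 each, with r between -0.59 and 0.54. The arachnoid barrier list shares Cldn11 with the oligodendrocyte list and Slc47a1 with the fibroblast transporter list.

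Pdgfra, Ptgds and Igf2 were set beside the other cell types that express them. The 8 oligodendrocyte precursor genes summed to 273 to 387 CPM, with 0 of the 8 at 0 in any library, and their list correlated with Pdgfra at r = 0.44 (rho = 0.45, permutation p adjusted 0.16 and 0.17; r = 0.24 without 2), against 0.83 for the endothelial list (rho = 0.83, permutation p adjusted 0.016 and 0.018; r = 0.85 without 2). The endothelial list had the highest r with Pdgfra of the marker lists compared. For microglia and for perivascular macrophages r was 0.74, for pericytes 0.68, for astrocytes 0.57 and for smooth muscle 0.36. Single precursor genes ran from -0.73 (Pcdh15) to 0.42 (Cspg4) in r with the mean of the 8 fibroblast genes, so the list mean joins unlike patterns. The r of single precursor genes with Pdgfra alone is not given here. For Ptgds, the 8 oligodendrocyte genes gave r = -0.36 (rho = -0.30, permutation p adjusted 0.3 and 0.4; r = -0.37 without 2). The 10 choroid plexus genes summed to 38.8 to 8631 CPM, and because libraries fell into clusters of low and high values no test of a correlation with their sum was made. Gene by gene, r with the mean of the 8 fibroblast genes was 0.02 to 0.22 over all libraries (median 0.06), with 0 of the 10 in the top 5% of genes by likeness. The same clusters limit these values. They describe the mean of all 8 genes, and no r of the choroid plexus list with Igf2 or Ptgds alone was computed. WT control replicate 1 had the lowest choroid plexus sum, 38.8 CPM, and the third highest Igf2, 705 CPM, and the second highest Ptgds, 2036 CPM. WT control replicate 4 had the highest choroid plexus sum, 8631 CPM, and the highest Igf2, 894 CPM. The part of these cells in the levels of the 3 genes was not tested.

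**Figure D5:**
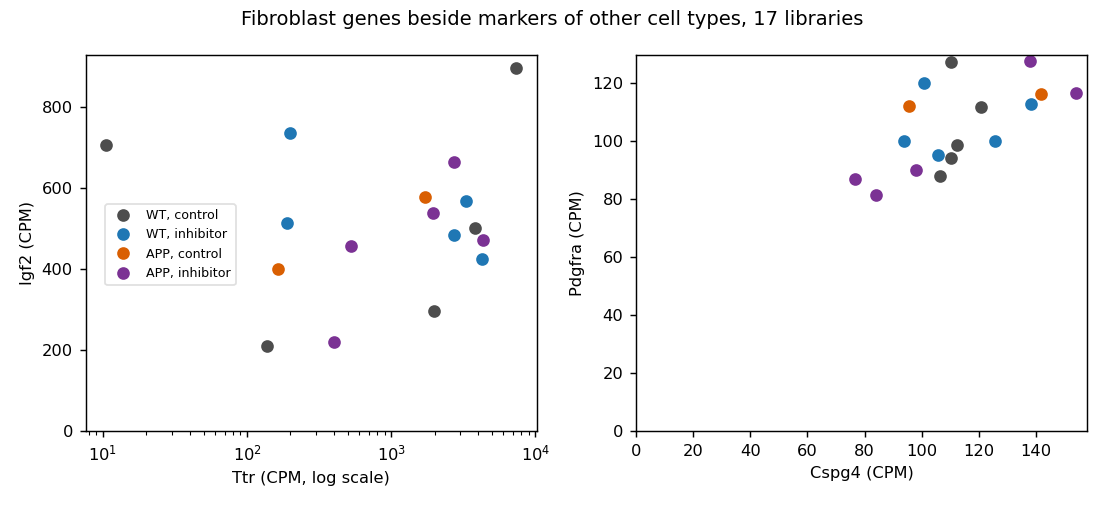
Igf2 against the choroid plexus gene Ttr (log axis) and Pdgfra against the oligodendrocyte precursor and pericyte gene Cspg4, in CPM; each point is a library, coloured by group. Igf2 is 705 CPM at the lowest Ttr, 10.5 CPM, and 894 CPM at the highest, 7372 CPM. Pdgfra is 87.1 CPM at the lowest Cspg4, 76.7 CPM, and 117 CPM at the highest, 154 CPM.

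The genes whose pattern was most like the mean of the 8, over 17 libraries after subtraction of group means, were Cast, the calpain inhibitor calpastatin (r = 0.98), Rab8b (0.96), Tns1 (0.95), Mrgprf (0.95), the small proteoglycan gene Ogn (0.94), Creb3l2 (0.94), Ctnna1 (0.93), Foxo1 (0.93), Aebp1 (0.93) and Sqor (0.93). Over all 18753 genes tested the median r was -0.01, the top 5% began at 0.73, and 56 genes reached 0.9. Of single genes, Ptgds was most like Fmod (0.98), another small leucine-rich proteoglycan, the transporter Slc6a20a (0.96) and osteopontin, Spp1 (0.96). Aldh1a2 was most like Abca9 (0.96), Colec12 (0.95) and Tpt1 (0.93), and Igf2 like the Wnt receptor Fzd7 (0.96), Cd59a (0.92) and the proteoglycan Prelp (0.91). Dcn was most like Uaca, the retinoic acid receptor Rara and Actn4 (each 0.93), and Lum like Rest (0.96), Flii (0.95) and Ttc28 (0.95). Pdgfra was most like Grn (0.94), Rps9 (0.92) and Tprgl (0.92), Fbln1 like Kirrel (0.92), Sp5 (0.91) and Sema3d (0.90), and Islr like Shb (0.96) and Zc3hav1 (0.95). These values are descriptions of shared patterns and carry no test.

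Related fibroblast genes shared the pattern unevenly. Of 20 genes for fibroblast transporters and regulators, 14 were in the top 5% of genes by likeness to the mean of the 8, among them the laminin chain Lama1 (r = 0.91), the organic anion transporter Slc22a6 (0.89) and the transcription factors Zic1 (0.89) and Foxc1 (0.88), while Cdh11 (-0.28) and Slc47a1 (-0.53) ran the other way. Of 14 tested genes for small proteoglycans and elastic fibres, 8 were, including Ogn, Efemp1 (0.91), Fmod (0.88), Bgn (0.83) and elastin, Eln (0.82), and Fbn1, for fibrillin-1, was at 0.11. Of 14 collagen genes, 1 was: Col1a2 (0.87), with Col3a1 at 0.70, Col1a1 at 0.66, Col5a1 at -0.19 and Col6a1 at -0.26. None of these related genes passed the test in any of the 5 comparisons, against the background shares above. The pattern was not particular to fibroblast genes. Also in the top 5% were 4 of 7 endothelial genes, led by Pecam1 (r = 0.91), and 3 of 6 smooth muscle genes. The same held for 2 of 7 pericyte and 2 of 5 perivascular macrophage genes, against 0 of 6 for each of the astrocyte, microglia and neuron lists.

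Values for those matrix genes were as follows. Bgn, for biglycan, was at 54.8 to 173 CPM and Fmod, for fibromodulin, at 37.0 to 184 CPM. Col6a1, a collagen VI chain, had the highest mean of the collagen list at 119 CPM and the smallest p of that list between genotypes, with a log2 change of -0.32 (SE 0.09; adjusted p = 0.166 by edgeR). Col5a1 followed in level, at 49.7 to 84.5 CPM. Fbn1 had a log2 change of -0.25 (SE 0.11; adjusted p = 0.718 by edgeR) between genotypes. For the inhibitor in WT the smallest p-values of the 3 lists belonged to Eln (log2 change 0.46, SE 0.24), Col1a2 (0.35, SE 0.21) and Slc22a6 (0.38, SE 0.28), and the adjusted p was 0.9999 for each by edgeR. Apod, for apolipoprotein D, and Cdh11, a cadherin, were the most abundant of the transporter and regulator list, at 316 to 1567 CPM and 118 to 192 CPM, and Apod was highest in WT control replicate 1. Apod also had the smallest p of that list between genotypes, with a log2 change of -0.40 (SE 0.31; adjusted p = 0.934 by edgeR).

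Around Igf2, 0 of 11 tested genes of the insulin-like growth factor axis passed in any comparison. Of all genes tested, 0.587% passed between genotypes and 0% in each other comparison. Its receptor genes Igf1r, at 530.5 to 869.9 CPM, and Insr, at 244 to 358 CPM, were abundant in every library. Igf1r had the smallest p of the list for the inhibitor in WT, with a log2 change of -0.12 (SE 0.13), and the binding protein gene Igfbp3 between genotypes, with -0.53 (SE 0.25; adjusted p = 0.763 by edgeR). Around Pdgfra, 0 of 5 genes of the PDGF axis passed, against the same shares of all genes. Pdgfrb, the receptor of mural cells, was at 121 to 208 CPM, the endothelial ligand gene Pdgfb at 61.8 to 121 CPM, and Pdgfc, which encodes a ligand of PDGF receptor alpha, had a log2 change of -0.25 (SE 0.10; adjusted p = 0.622 by edgeR) between genotypes. For the inhibitor in WT, Pdgfd had a log2 change of 0.05 (SE 0.16).

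Around Aldh1a2, 0 of 15 tested genes of the retinoic acid pathway passed in any comparison, against the same shares of all genes. Of the 15, 7 were in the top 5% by likeness to the mean of the 8, led by Rara (r = 0.82). The retinol importer Stra6 was at 31.7 to 89.5 CPM, the receptor gene Rarg at 28.1 to 45.6 CPM, and the gene of the retinoic acid-degrading enzyme Cyp26b1 at 6.91 to 75.0 CPM. Cyp26b1 had the smallest p of the list between genotypes (log2 change -0.50, SE 0.43; adjusted p = 0.945 by edgeR), and the receptor gene Rxra for the inhibitor in WT (0.11, SE 0.13).

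Around Ptgds, 2 of 11 prostaglandin genes rose in APP (0.56% of all genes tested rose), and both are enzymes that act on prostaglandin H2 beside it. Hpgds, the hematopoietic prostaglandin D synthase, makes the same product as Ptgds. It was at 15.4, 16.95, 14.01, 17.6 and 13.2 CPM in WT control and 14.5, 14.1, 11.2, 18.04 and 16.7 CPM in WT inhibitor libraries. In APP it was at 24.7 and 31.4 CPM in control and 21.7, 31.8, 25.4, 27.3 and 24.7 CPM in inhibitor libraries, so every APP library lay above every WT library. The log2 change was 0.83 (SE 0.10; adjusted p = 0.000138 by edgeR's quasi-likelihood test). Tbxas1, the thromboxane A synthase, was at 3.76 to 8.87 CPM in WT and 8.78 to 13.5 CPM in APP, with a log2 change of 1.02 (SE 0.16; adjusted p = 0.00216 by edgeR). The 2 ranges of Tbxas1 overlap by 1 library of each genotype. Ptgds itself had a log2 change of -0.10 between genotypes.

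Of the other prostaglandin genes, Ptges3 was at 41.2 to 77.4 CPM, the inducible cyclooxygenase Ptgs2 at 28.8 to 119 CPM, and the prostacyclin synthase Ptgis had the smallest p for the inhibitor in WT (log2 change 0.48, SE 0.32; adjusted p = 0.9999 by edgeR). Microglial genes moved with the genotype as well: 4 of the 6 on the microglia list rose in APP (0.56% of all genes tested rose), 6 of 6 log2 changes were above 0 (50.7% of all genes) with a median of 0.66, and the list summed to 171 to 238 CPM in WT and 205 to 385 CPM in APP. Their part in the change of Hpgds and Tbxas1 was not tested. Hpgds (r = 0.13) and Tbxas1 (0.27) were far from the top 5% by likeness to the mean of the 8 fibroblast genes.

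Of 15 TGF-beta genes, 1 rose in APP, against the same 0.56% of all genes. Tgfbr1, the type I receptor, was at 41.0 to 63.6 CPM in WT and 64.6 to 77.3 CPM in APP libraries, ranges that do not overlap, with a log2 change of 0.46 (SE 0.09; adjusted p = 0.0142 by edgeR). Without APP control replicate 1 or 2 the change was 0.43 or 0.45. The call was lost in each of these fits, which leave 1 APP control library. It held with DESeq2's Wald test (adjusted p = 0.00059). By edgeR it held without the low-count filter (adjusted p = 0.00898) and with DESeq2 size factors (adjusted p = 0.0147). The microglial sums given above overlapped between the genotypes, with APP inhibitor replicate 1, at 205 CPM, below 2 of the WT libraries. Their part was not tested. After subtraction of group means, Tgfbr1 had r = 0.82 with the mean of the fibroblast genes. Unlike Hpgds and Tbxas1, it was in the top 5% of genes by that likeness, which began at 0.73. The relation of this shared pattern to the change of Tgfbr1 between genotypes was not tested. Ltbp4, a binding protein of latent TGF-beta, was at 107 to 236 CPM, Tgfbr2 at 90.2 to 161 CPM, and Tgfb1 had the smallest p for the inhibitor in WT (log2 change 0.25, SE 0.22; adjusted p = 0.9999 by edgeR).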

How the data were processed

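The authors deposited raw counts per Ensembl gene for 17 libraries, whole numbers with a different total in each; per the submitters' processing notes, the tools were cutadapt, STAR, HTSeq and DESeq2 and the builds mm10 and GRCh37, with no role or version given. Whether counting used strand, and which annotation it used, is not given in the sources used here. Symbols and locations came from GENCODE vM21 (GRCm38): 42250 of 42687 IDs matched and 437 did not. A further 20 columns whose names matched no sample were not used, and mitochondrial genes were not analysed here. Of 136 pairs of libraries 0 were identical.

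Counts were scaled by TMM and filtered by filterByExpr, which left 18753 genes, and tested with edgeR 4.0.16 in R 4.3.3 (quasi-likelihood F test, Benjamini-Hochberg adjustment over all genes, threshold 0.05), checked on simulated data. All 17 libraries entered each fit: an additive model of genotype and peptide, and a model with 1 mean per group. Log2 CPM used a prior count of 2. Intervals of log2 changes are 95% t intervals. The floor of 3 counts covers counting error only. Correlations used numpy 2.4.6 and scipy 1.17.1.

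The members and gene lists were chosen with earlier results of these data known. Named from the lists are genes past the threshold, the gene with the smallest p for genotype and for the inhibitor in WT, and the 2 most abundant; genes named for likeness are the 3 nearest to each member and the 10 nearest to the mean, except that some genes these rules name are not reported here. Correlations of list genes with the mean of the 8 (Lama1, Slc22a6, Zic1, Foxc1, Efemp1 and the like) name genes chosen after their values were seen. Alternatives were DESeq2 size factors, no low-count filter, DESeq2 1.42.0, fits of 1 genotype alone and each library left out in turn.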

Additional observations from a re-analysis of the deposited data

How the results depend on the processing

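Over 680 alternative values of the 40 changes of the 8 fibroblast genes, 0 passed the threshold, and the smallest adjusted p was 0.686. The count of genes called between genotypes, 110, was 175 (150 higher, 25 lower) with DESeq2's Wald test, and 70 to 125 with 1 library left out, the lowest without APP control replicate 2; the other 4 comparisons called 0 genes under each alternative. With DESeq2 size factors the genotype change of Pdgfra was -0.0023 and the inhibitor change of Islr over genotypes -0.0031; with DESeq2's test they were -0.0014 and -0.0022. With 1 library left out, the sign turned in 57 of the values, each 1 gene in 1 comparison and fit, of the changes that follow as ranges on the log2 scale. Genotype: Pdgfra -0.0485 to 0.0509 and Ptgds -0.1997 to 0.0374. Inhibitor over genotypes: Dcn -0.0150 to 0.1738, Aldh1a2 -0.0330 to 0.2671, Igf2 -0.1071 to 0.1837, Ptgds -0.0657 to 0.2012 and Islr -0.0587 to 0.1548. Inhibitor in WT: Pdgfra -0.0323 to 0.1074, Igf2 -0.1381 to 0.3464 and Ptgds -0.0043 to 0.4484. Inhibitor in APP: Lum -0.1522 to 0.1765, Fbln1 -0.1892 to 0.1118, Aldh1a2 -0.5636 to 0.1394 and Igf2 -0.2992 to 0.2303. Difference of inhibitor effects: Igf2 -0.4049 to 0.1678. The cause was not tested. Leaving out 1 of the 2 APP control libraries leaves a lone library that is assumed to vary like the other groups. Hpgds and Tbxas1 passed in each alternative. The median r of the 28 gene pairs was 0.67 to 0.78 with each library left out, an alternative chosen after seeing the data. No paired analysis was possible because the labels give no shared replicate numbers. Lum, with 52 counts in its lowest library, is the gene whose depth limits precision most.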

Other observations

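Marker lists of other cells and the fibroblast transporter and regulator list had these estimates in the comparisons of the inhibitor. There, 0 genes passed by edgeR's quasi-likelihood test (252 of 18753 at an unadjusted p under 0.05 in WT, 338 in APP, and 0 genes passed with DESeq2). Of the 6 smooth muscle genes, 5 were above 0 in WT (median log2 change 0.37) and 5 in APP (median 0.24). Of the 7 endothelial genes, 6 were above 0 in WT (median 0.06) and 1 in APP (median -0.10). Of the 7 pericyte genes, 5 were above 0 in WT (median 0.03) and 1 in APP (median -0.10). Of the 20 fibroblast transporter and regulator genes, 17 were above 0 in WT (median 0.13) and 4 in APP (median -0.08). Of the 10 choroid plexus genes, 0 were above 0 in WT (median -0.26) and 10 in APP (median 0.92), while the 8 fibroblast genes had 8 above 0 in WT and 1 in APP. Of the 5 perivascular macrophage genes, 4 were above 0 in WT (median 0.15) and 3 in APP (median 0.07). Oligodendrocyte genes were above 0 for 0 of 8 in WT (median -0.08) and 1 of 8 in APP (median -0.15). Each list describes the same libraries, and the relation of these values to those of the fibroblast genes was not tested.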
